A study of Anguilla japonica with 6 samples.

Results

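The genes described here serve the endosome, the lysosome, the proton pump that acidifies both, and autophagy. They were chosen by symbol in a table of gene expression from pituitaries of female Japanese eel (Anguilla japonica), and 140 of the 32359 genes in the table matched (stems such as atp6v, cts, lamp, vps, snx, mtmr, atg, chmp, mcoln and ulk). The study set 3 RNA-seq libraries of pituitaries labelled matured against 3 labelled pre-matured, all from females, and the series also names full-length transcript sequencing, which was not analysed here. The labels give neither the animals' ages nor whether maturation was natural or brought about by hormones, so an effect of such a treatment cannot be told apart from maturation. They do not say whether each library is a separate animal, so p-values cover only the spread among these 6 libraries, which may be technical.

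Endosomes receive membrane and cargo from the cell surface and the Golgi, and send them back to the surface, to the Golgi or on to lysosomes, where acid hydrolases degrade them. The vacuolar ATPase (V-ATPase) pumps protons into these compartments, and autophagy delivers cytoplasm, organelles and, in endocrine cells, surplus secretory granules to the same lysosomes. The phosphoinositide PI3P marks early endosomes and forming autophagosomes, and many of the proteins below make, bind or remove it.

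Expression values are FPKM, which correct a gene's reads for its length and for the depth of the library, so levels of different genes are compared per length. Library values are given in the order matured 1, 2 and 3 and pre-matured 1, 2 and 3. A gene was tested if it had 1 FPKM or more in at least 3 libraries, and it is called higher, or said to have risen, when its adjusted p was under 0.05 in a limma fit across all 17887 such genes (likewise lower, or fallen). Fold changes are differences of log2(FPKM + 1), matured minus pre-matured, which understate changes of weakly expressed genes. Depth, rebuilt from the values, was 16033675 to 19619964 reads per library. Libraries of a group correlated with r of 0.920 to 0.947 across tested genes, and libraries of different groups with 0.780 to 0.825. Ribosomal protein genes held 13.9% to 14.4% of the FPKM total in matured libraries and 22.6% to 26.6% in pre-matured ones, and the median fold change of all genes tested was 0.23, so a value near that is not a change relative to other genes. Pituitary endocrine markers were present, with a summed level of 18445 to 44588 FPKM in matured libraries and 3998 to 4281 FPKM in pre-matured ones over 12 genes found in the table, among them gh1 and lhb.

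Of the 140 members, 134 passed the filter on low values. Among them, mcoln1a, mcoln1b, snx16 and mtmr12 were under 1 FPKM in every pre-matured library and so passed it through the matured libraries alone. Of the 134, 36 were higher in matured pituitaries (26.9%), where 23.4% of all genes tested were higher, and 5 were lower (3.7%), where 10.05% of all genes were lower. The share called higher thus lay near that of all genes. The members' median log2 fold change was 0.37. In 57 members every matured library exceeded every pre-matured one, and in 12 the reverse held, against 33.3% and 15.9% of all genes tested. As a share of each library's FPKM total, the members held 0.498%, 0.558% and 0.521% in matured libraries and 0.318%, 0.385% and 0.365% in pre-matured ones, so the groups did not overlap. The totals themselves differed, at 500088 to 545149 FPKM in matured and 620732 to 713023 FPKM in pre-matured libraries. The members' own sums lay closer together, at 2611 to 2842 FPKM in matured and 2270 to 2389 FPKM in pre-matured libraries. In bulk tissue, more cells of a type and more RNA per cell cannot be told apart.

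**Figure D1:**
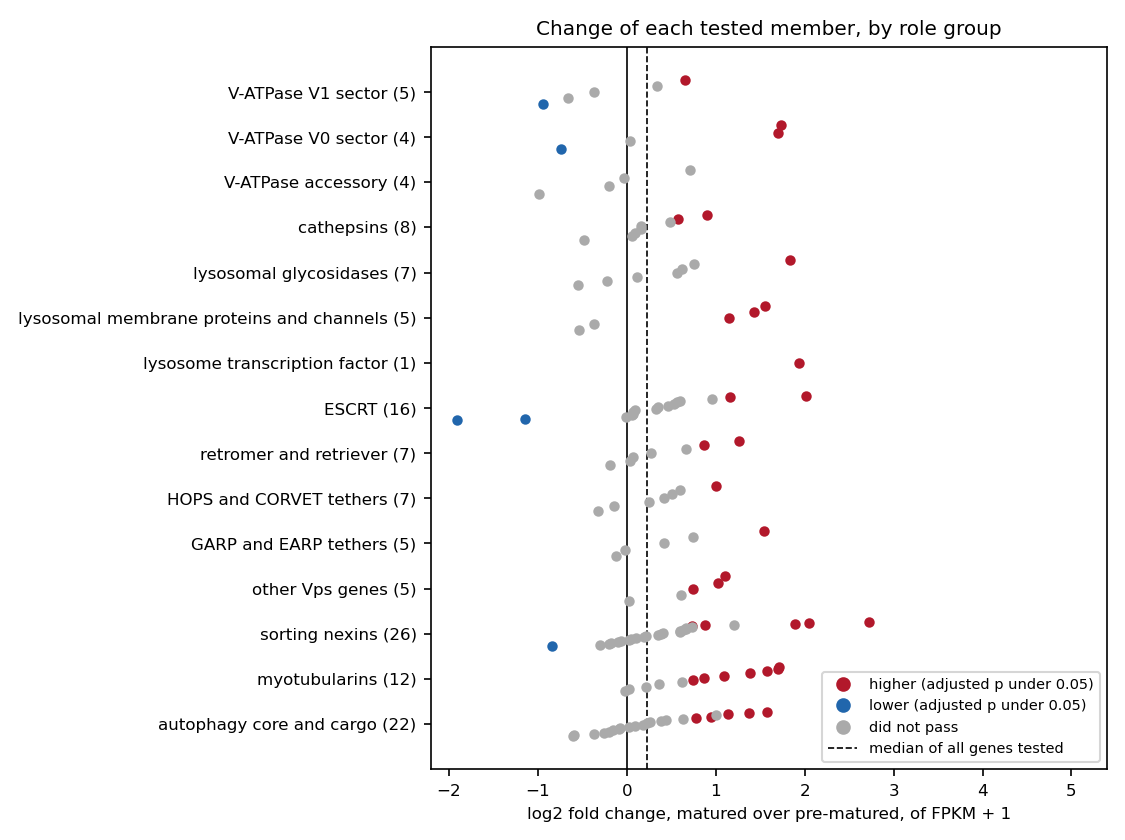
Log2 fold change (matured over pre-matured, of FPKM + 1) of each of the 134 tested members, 1 point per gene, in rows by role with the number tested in brackets; red points were higher and blue points lower at adjusted p under 0.05 in limma, and the dashed line marks the median of all genes tested at 0.23. Myotubularins lie mostly to the right of the dashed line, while V-ATPase and ESCRT members lie on both sides of 0.

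Of the 41 calls, 21 were kept in each of 14 other settings of scaling, filter, pseudocount and left-out library that tested the gene (4 of them were not tested with a filter of 5 FPKM). The 19 higher ones included the transcription factor gene tfeb, the lysosomal genes lamp2 and mcoln1a, the V-ATPase genes atp6v0a1a and atp6v0b, the retromer genes vps26a and vps26bl, the ESCRT-III gene chmp4c, the sorting nexins snx10b, snx16 and snx17, the myotubularins mtmr2, mtmr8, mtmr9 and mtmr12, and the autophagy genes atg3, atg9a and atg9b. The 2 lower ones, vps37a and vps37d, both encode forms of 1 ESCRT-I subunit. Of the higher ones, mcoln1a, snx16 and mtmr12 passed the filter through the matured libraries alone, and the fits with a library left out tested the same genes. These 21 were picked out after their values were seen. Kept calls were not counted over all genes, so whether members held their calls better than other genes was not tested.

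Tfeb encodes a transcription factor that, when it enters the nucleus, activates genes of lysosomes and autophagy. It was at 4.57, 7.11 and 7.97 FPKM in the matured samples, against 1.34, 1.11 and 0.482 FPKM in the pre-matured samples (log2 fold change 1.93 ± 0.303 SE, limma adjusted p = 0.00299). Every matured library exceeded every pre-matured one, on 142, 270 and 251 reads in matured and 50, 40 and 17 reads in pre-matured libraries.

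Lysosomal membrane proteins and channels split: 3 of 5 tested members rose (60%, against 23.4% of all genes) and none of them fell, while 2 members did not pass. Of those that rose, mcoln1a and mcoln1b passed the filter through the matured libraries alone, so the count leans towards rises. Lamp2, a heavily glycosylated protein of the lysosomal membrane that also takes part in chaperone-mediated autophagy, was at 30.7, 39.8 and 54.8 FPKM in the matured samples, against 13.6, 13.6 and 12.2 FPKM in the pre-matured samples (log2 fold change 1.56 ± 0.24 SE, limma adjusted p = 0.00275). The pre-matured libraries lay close together, and the matured ones spread above them. Lamp1a, from the sister gene of that membrane family, was at 13.9, 10.5 and 9.07 FPKM in the matured samples, against 16.2, 16.7 and 16.4 FPKM in the pre-matured samples (log2 fold change -0.54 ± 0.21 SE, limma adjusted p = 0.0840). Its matured libraries were all lower than its pre-matured ones, the opposite order to lamp2, but the difference did not pass, and it passed as lower with quantile normalization, median-ratio scaling and voom on rebuilt reads.

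Both genes for mucolipin 1, a cation channel of late endosomes and lysosomes that releases calcium, rose, at low levels in both groups. Each was under 1 FPKM in every pre-matured library and so was tested only because of its matured values. Mcoln1a was at 2.78, 4.35 and 3.08 FPKM in the matured samples, against 0.586, 0.593 and 0.681 FPKM in the pre-matured samples (log2 fold change 1.43 ± 0.25 SE, limma adjusted p = 0.00444). Mcoln1b was at 1.85, 3.52 and 3.17 FPKM in the matured samples, against 0.428, 0.888 and 0.816 FPKM in the pre-matured samples (log2 fold change 1.15 ± 0.28 SE, limma adjusted p = 0.0152), and its adjusted p was 0.0519 without matured 2 and, equally, 0.0519 without matured 3. In both genes every matured library lay above every pre-matured one, and the changes of the pair differed by 0.28 (95% interval -0.37 to 0.92), so neither was shown to rise more. Mcoln2, a related channel gene, did not pass (log2 fold change -0.37, limma adjusted p = 0.397). Of the 2 members that missed the filter, lamp5 and mcoln3b, the highest value in any library was 0.875 FPKM.

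Among 7 tested lysosomal glycosidases, which cleave sugars from glycolipids and glycoproteins, 1 rose (14.3%, against 23.4% of all genes) and none fell. Those described here did not pass. Glb1, the lysosomal beta-galactosidase, was at 18.4, 17.99 and 17.5 FPKM in the matured samples, against 8.28, 8.26 and 15.4 FPKM in the pre-matured samples (log2 fold change 0.76 ± 0.26 SE, limma adjusted p = 0.0533). Its groups did not overlap, with pre-matured 3 nearest to the matured libraries, and it passed with TPM, with trimmed totals (library totals that leave out genes above 1% of any library), with a filter of 5 FPKM and without pre-matured 3 (limma adjusted p = 0.0177, 0.0159, 0.0465 and 0.0129). Gla, the alpha-galactosidase, and gba, the glucocerebrosidase, did not pass (log2 fold change 0.12 and 0.62; limma adjusted p = 0.769 and 0.0868). The rule also took in gba2 and gba3, 2 glucosidase genes whose products are known to act outside the lysosome. Gba2 was at 9.35, 11.7 and 11.3 FPKM in the matured samples, against 15.5, 15.96 and 17.3 FPKM in the pre-matured samples (log2 fold change -0.55 ± 0.19 SE, limma adjusted p = 0.0574). It lay lower in every matured library and passed as lower with quantile normalization, median-ratio scaling and voom (limma adjusted p = 0.0172, 0.0133 and 0.0141).

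Cathepsins, the lysosome's proteases, rose in 2 of 8 tested (25.0%, near the 23.4% of all genes) and fell in none, and their median log2 fold change was 0.16, against 0.23 for all genes. Ctsk, cathepsin K, a collagen-degrading protease, was at 24.3, 37.9 and 27.97 FPKM in the matured samples, against 14.2, 15.3 and 16.5 FPKM in the pre-matured samples (log2 fold change 0.904 ± 0.22 SE, limma adjusted p = 0.0146). Matured 2 was highest, and without it the call was lost (limma adjusted p = 0.0529). Ctsf, cathepsin F, was among the most highly expressed members, at 165, 126 and 157 FPKM in the matured samples, against 104, 92.03 and 102 FPKM in the pre-matured samples (log2 fold change 0.57 ± 0.19 SE, limma adjusted p = 0.0443). Its groups did not overlap, but the call was lost without any 1 library other than matured 2 (limma adjusted p between 0.0672 and 0.143), without a filter (0.0593), and with median-ratio scaling and voom (0.334 and 0.326). Ctsh, cathepsin H, was at 28.6, 24.8 and 41.1 FPKM in the matured samples, against 24.1, 23.4 and 18.3 FPKM in the pre-matured samples (log2 fold change 0.48 ± 0.24 SE, limma adjusted p = 0.151) and did not pass, though it did with TPM and with trimmed totals (limma adjusted p = 0.0283 and 0.0257). Ctsba, cathepsin B and the cathepsin with the highest mean, was at 165, 203 and 237 FPKM in the matured samples, against 299.8, 112 and 169 FPKM in the pre-matured samples (log2 fold change 0.16 ± 0.34 SE, limma adjusted p = 0.748). Pre-matured 1 and 2 gave its highest and lowest values of all 6 libraries, so the groups overlapped fully, and its sign turned with median-ratio scaling and voom and without pre-matured 2 (log2 fold change -0.11, -0.12 and -0.17). Ctsa, ctsc, ctsd and ctsla did not pass, with log2 fold changes between -0.48 and 0.16, and ctsl.1 was under the filter.

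**Figure D2:**
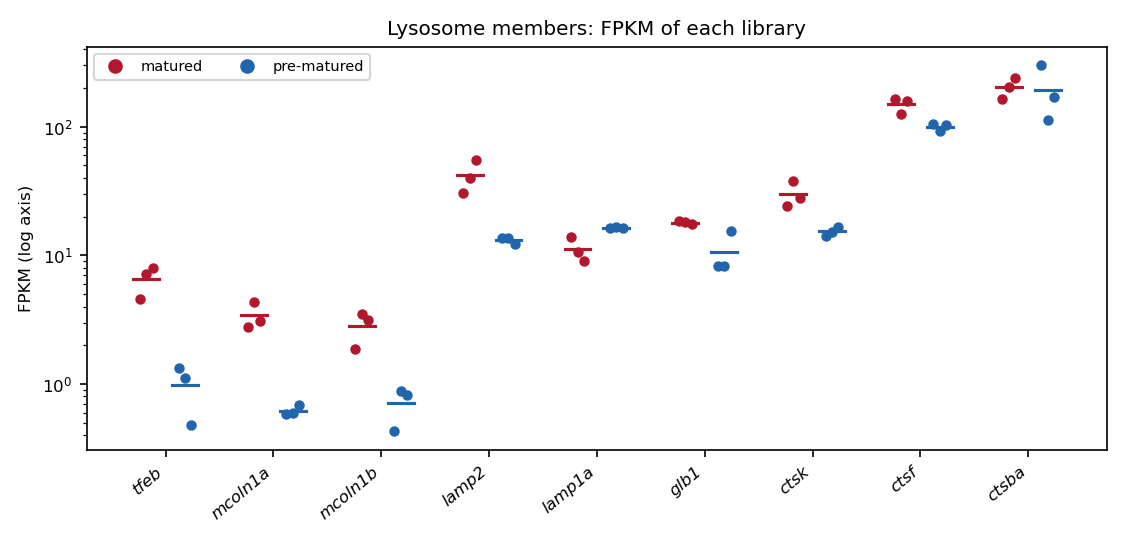
FPKM (log axis) of 9 lysosome members, with matured libraries in red to the left and pre-matured libraries in blue to the right for each gene; points are the 3 libraries of a group and bars their mean. The groups are apart in tfeb, mcoln1a, mcoln1b, lamp2 and ctsk, with matured libraries higher, while ctsba overlaps and lamp1a lies lower in matured libraries.

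Macrophages and microglia are rich in lysosomes. Of 24 genes listed as their markers 16 were found in the table and 12 were tested. Of the 12, 2 were higher (16.7%, against 23.4% of all genes) and 1 lower (8.3%, against 10.05% of all genes). Csf1ra, at 1.34 FPKM or less, and c1qc were higher (log2 fold change 0.77 and 0.81). Of these, csf1ra passed the filter through the matured libraries alone. Apoeb was lower, at 36.5, 13.9 and 37.7 FPKM in the matured samples, against 63.8, 131 and 346 FPKM in the pre-matured samples. The markers' summed level was 667 to 798 FPKM in matured libraries and 649 to 1410 FPKM in pre-matured ones, so the groups overlapped. The marker mafba was listed at 0 in all libraries. The marker ptprc, a leukocyte surface protein, averaged 6.62 ± 2.68 FPKM in matured and 7.15 ± 2.66 FPKM in pre-matured libraries (SD, n = 3 each). Endothelial markers (13 genes) summed to 58.8 to 86.2 FPKM in matured and 28.7 to 54.5 FPKM in pre-matured libraries, without overlap. Much of that difference lay in plvapb, at 26.6, 23.2 and 33.5 FPKM in the matured samples, against 2.04, 4.94 and 2.003 FPKM in the pre-matured samples. Of the 13 endothelial markers 2 were higher (15.4%, against 23.4% of all genes) and none lower. The 2 were plvapb and sox17, of which sox17 passed the filter through the matured libraries alone, as did tie1, which was not called. Fibroblast markers (7 genes) summed to 73.2 to 139 FPKM in matured and 48.6 to 82.0 FPKM in pre-matured libraries, with overlap. All 6 that were tested had positive log2 fold changes, and 1 was higher (16.7%, against 23.4% of all genes). That was pdgfra, at 4.99, 5.54 and 1.91 FPKM in the matured samples, against 0.408, 0.704 and 0.156 FPKM in the pre-matured samples. It passed the filter through the matured libraries alone. Glial markers (8 genes) summed to 94.6 to 124 FPKM in matured and 125 to 226 FPKM in pre-matured libraries, without overlap. Mbpa alone was at 96.3 FPKM in pre-matured 3, and the only glial marker called, slc1a3a, was higher. Neuronal markers (7 genes) summed to 193 to 358 FPKM in matured and 141 to 218 FPKM in pre-matured libraries, with overlap. Of these nefma rose, at 118, 212 and 54.2 FPKM in the matured samples, against 21.9, 14.6 and 17.9 FPKM in the pre-matured samples. The other tested neuronal markers, elavl4, snap25b and map2, did not pass (log2 fold change -0.14, -0.20 and -0.21). Erythrocyte markers (3 genes) summed to 11.1 to 15.9 FPKM in matured and 20.4 to 90.5 FPKM in pre-matured libraries, without overlap. Alas2 alone was at 76.6 FPKM in pre-matured 1. The part of such cells in the members' changes was not tested.

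V-ATPase genes were called in both directions. Of 13 members tested, 3 rose (23.1%, near the 23.4% of all genes) and 2 fell (15.4%, against 10.05% of all genes). The median log2 fold change of the 13 was -0.026, against 0.23 for all genes. The pump has a membrane sector, V0, that carries the protons, and a cytosolic sector, V1, that hydrolyses ATP to drive it. In V0, atp6v0a1a, the large subunit that forms the proton path and holds the sectors together, was at 24.1, 30.3 and 21.6 FPKM in the matured samples, against 4.17, 9.51 and 8.53 FPKM in the pre-matured samples (log2 fold change 1.701 ± 0.300 SE, limma adjusted p = 0.00444). Atp6v0b, 1 of the small ring-forming proteolipids, was at 7.53, 7.38 and 7.196 FPKM in the matured samples, against 0.528, 2.11 and 2.38 FPKM in the pre-matured samples (log2 fold change 1.73 ± 0.33 SE, limma adjusted p = 0.00634). Both genes were higher in every matured library, and pre-matured 1 was the lowest library for each. Atp6v0cb, the most abundant V0 member and also a ring proteolipid, went the other way, at 140.3, 144 and 140.4 FPKM in the matured samples, against 218, 233 and 261 FPKM in the pre-matured samples (log2 fold change -0.74 ± 0.17 SE, limma adjusted p = 0.0126). Its matured libraries were nearly equal and all below the pre-matured ones, but the call was lost with TPM and with trimmed totals (limma adjusted p = 0.126 and 0.107). The fourth V0 member, atp6v0a2b, did not pass (log2 fold change 0.034, limma adjusted p = 0.934).

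In V1, atp6v1b2, a subunit of the ATP-hydrolysing head, was at 8.399, 6.91 and 8.71 FPKM in the matured samples, against 15.9, 11.5 and 23.3 FPKM in the pre-matured samples (log2 fold change -0.94 ± 0.27 SE, limma adjusted p = 0.0288). The matured libraries were lower throughout. Without any 1 library other than pre-matured 2 the call was lost (limma adjusted p between 0.0601 and 0.0867), as it was without a filter, with TPM and with trimmed totals (0.0531, 0.101 and 0.102). Atp6v1ba, a second gene for that subunit, was at 35.6, 56.4 and 50.98 FPKM in the matured samples, against 79.3, 97.1 and 53.7 FPKM in the pre-matured samples (log2 fold change -0.66 ± 0.27 SE, limma adjusted p = 0.0922). Matured 2 exceeded pre-matured 3, so the groups overlapped, and it passed as lower without pre-matured 3, with median-ratio scaling and with voom (limma adjusted p = 0.0419, 0.0333 and 0.0307). Atp6v1f, of the rotating stalk, was at 81.2, 107 and 132 FPKM in the matured samples, against 72.96, 62.6 and 63.6 FPKM in the pre-matured samples (log2 fold change 0.65 ± 0.22 SE, limma adjusted p = 0.0496). It lay at the threshold: the call was lost with a pseudocount of 0.1 (limma adjusted p = 0.0516), without a filter (0.0772), without any 1 library other than matured 1 (0.0686 to 0.164), and with median-ratio scaling and voom (0.267 and 0.263). Atp6v1d, also of the stalk, and atp6v1c1b, a subunit that links the sectors, did not pass (log2 fold change 0.34 and -0.37).

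None of the 4 accessory members passed. Atp6ap2, an accessory protein of the pump also known as the prorenin receptor, was at 103, 90.1 and 129 FPKM in the matured samples, against 112, 137 and 119.6 FPKM in the pre-matured samples (log2 fold change -0.203 ± 0.202 SE, limma adjusted p = 0.469). Atp6ap1a was at 13.4, 14.5 and 9.77 FPKM in the matured samples, against 4.13, 9.06 and 9.77 FPKM in the pre-matured samples (log2 fold change 0.71 ± 0.32 SE, limma adjusted p = 0.122). Atp6ap1la was at 2.68, 1.79 and 2.32 FPKM in the matured samples, against 2.57, 7.16 and 8.201 FPKM in the pre-matured samples (log2 fold change -0.99 ± 0.38 SE, limma adjusted p = 0.0730). In all 3 the groups overlapped. Atp6ap2 had the opposite sign with TPM and with trimmed totals (log2 fold change 0.12 and 0.13, limma adjusted p = 0.685 and 0.659), atp6ap1a passed as higher with trimmed totals (0.0433), and atp6ap1la passed as lower with quantile normalization, median-ratio scaling, voom and without pre-matured 1 (0.0187, 0.0307, 0.0398 and 0.0112).

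Of 22 autophagy genes tested, 5 rose (22.7%, near the 23.4% of all genes) and none fell. Their median log2 fold change was 0.21, against 0.23 for all genes. Under median-ratio scaling, as under voom, 4 were higher and 2 lower. Of all genes 17.8% and 16.2% were higher under these scalings, and 15.6% and 14.6% lower. The 5 that rose were both atg9 genes, both atg2 genes and atg3. Atg9 is the lipid scramblase of the membranes that seed an autophagosome, and Atg2 is the bridge along which lipids reach it. Atg9a was at 9.93, 10.3 and 8.49 FPKM in the matured samples, against 2.65, 5.02 and 3.996 FPKM in the pre-matured samples (log2 fold change 1.14 ± 0.26 SE, limma adjusted p = 0.0111). Atg9b was at 9.63, 5.99 and 7.58 FPKM in the matured samples, against 2.15, 2.33 and 2.49 FPKM in the pre-matured samples (log2 fold change 1.37 ± 0.25 SE, limma adjusted p = 0.00485). Both stood higher in every matured library, and their changes differed by -0.23 (95% interval -0.95 to 0.48). Atg2b was at 11.3, 8.07 and 10.2 FPKM in the matured samples, against 3.92, 4.603 and 5.31 FPKM in the pre-matured samples (log2 fold change 0.94 ± 0.23 SE, limma adjusted p = 0.0153). Atg2a was at 7.87, 7.596 and 6.13 FPKM in the matured samples, against 4.72, 2.98 and 3.75 FPKM in the pre-matured samples (log2 fold change 0.78 ± 0.24 SE, limma adjusted p = 0.0385). Their groups too were apart, but these calls were less firm: that of atg2b was lost without matured 1 or matured 3 and with quantile normalization (limma adjusted p = 0.0688, 0.0571 and 0.0501), and that of atg2a without any 1 library other than pre-matured 1 (0.0685 to 0.13), without a filter (0.0556), and with quantile normalization, median-ratio scaling and voom (0.176, 0.135 and 0.0854).

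Atg3, the enzyme that attaches LC3-type proteins to lipid, was at 6.75, 8.09 and 8.22 FPKM in the matured samples, against 1.3002, 2.797 and 1.78 FPKM in the pre-matured samples (log2 fold change 1.58 ± 0.27 SE, limma adjusted p = 0.00383). All matured libraries exceeded all pre-matured ones. The other genes of that conjugation route, atg4a, atg4b, atg4c, atg4da, atg5, atg7, atg10, atg12 and atg16l1, did not pass (log2 fold change -0.598 to 1.003, limma adjusted p of 0.0582 or more). Initiation genes also did not pass. Atg13, of the ULK kinase complex and the autophagy member with the highest mean, was at 22.8, 21.02 and 21.1 FPKM in the matured samples, against 27.6, 31.5 and 25.6 FPKM in the pre-matured samples (log2 fold change -0.37 ± 0.18 SE, limma adjusted p = 0.155). Its matured libraries were all lower, and it passed as lower with median-ratio scaling and voom (limma adjusted p = 0.0321 and 0.0296). The kinase genes ulk1a, ulk1b and ulk2 had log2 fold changes of 0.022, 0.23 and 0.38, and atg101, a partner of atg13, of -0.603 (limma adjusted p = 0.0590). Atg101 too lay lower in every matured library, and it passed as lower under 3 of the 6 scalings, voom among them (limma adjusted p = 0.0141). Becn1, pik3c3 and atg14, which form the lipid kinase that makes PI3P, had log2 fold changes of -0.078, -0.16 and -0.201. Sqstm1, the cargo receptor p62, was listed at 0 in all 6 libraries. Abundant mitochondrial genes are also listed at 0 in this table, so that is not evidence of absence.

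**Figure D3:**
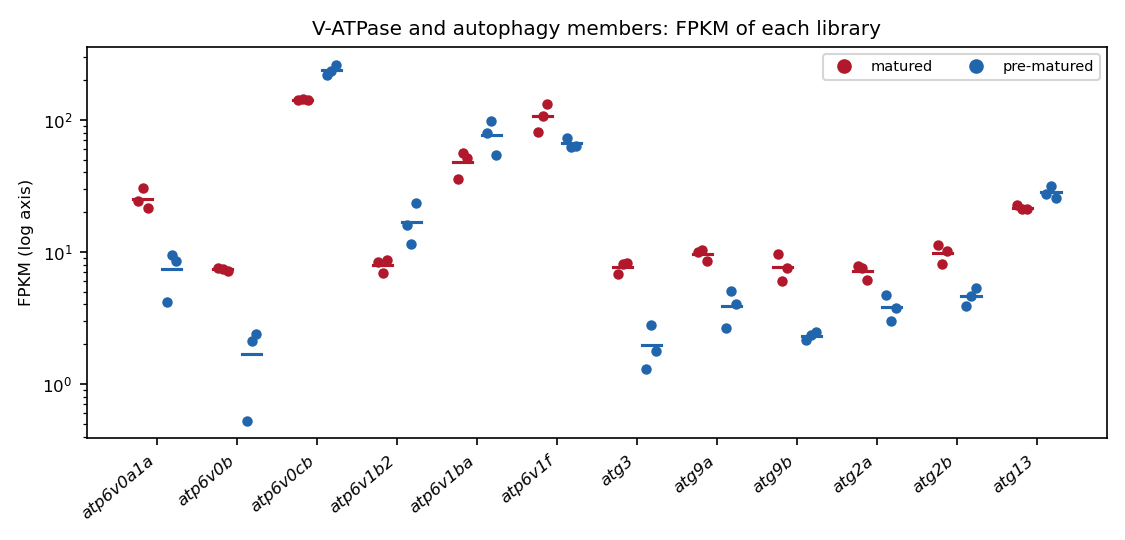
FPKM (log axis) of 6 V-ATPase and 6 autophagy members, matured libraries in red to the left and pre-matured libraries in blue to the right for each gene, with bars at the mean of the 3 libraries. Atp6v0a1a and atp6v0b lie higher in matured libraries while atp6v0cb and atp6v1b2 lie lower, and atg3, atg9a, atg9b, atg2a and atg2b all lie higher.

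Of 12 myotubularins tested, 7 rose (58.3%, where 23.4% of all genes rose) and none fell. Under the other scalings 5 to 8 were higher, against 16.2% to 34.3% of all genes. Without any 1 library 5 to 7 were higher, against 15.1% to 21.9% of all genes. Of the 7 that rose, mtmr12 passed the filter through the matured libraries alone. The family's median log2 fold change was 0.81. These phosphatases remove a phosphate from PI3P and related lipids, and some members have no catalytic activity and act as partners of the others. Mtmr2, an active member, was at 20.9, 14.98 and 16.6 FPKM in the matured samples, against 4.39, 5.02 and 6.16 FPKM in the pre-matured samples (log2 fold change 1.58 ± 0.23 SE, limma adjusted p = 0.00226). Mtmr9, an inactive partner, was at 7.58, 10.7 and 10.4 FPKM in the matured samples, against 1.77, 2.65 and 2.29 FPKM in the pre-matured samples (log2 fold change 1.701 ± 0.25 SE, limma adjusted p = 0.00232). Mtmr12, also inactive, was at 4.204, 4.21 and 3.86 FPKM in the matured samples, against 0.681, 0.242 and 0.7899 FPKM in the pre-matured samples (log2 fold change 1.71 ± 0.26 SE, limma adjusted p = 0.00260). In each the lowest matured library was well above the highest pre-matured one. Mtmr1a had the highest level of the family and was at 81.5, 69.03 and 60.9 FPKM in the matured samples, against 40.5, 37.9 and 35.5 FPKM in the pre-matured samples (log2 fold change 0.87 ± 0.19 SE, limma adjusted p = 0.00990). Its groups were apart, but the call was lost with median-ratio scaling and voom (limma adjusted p = 0.0579 and 0.0558).

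Mtmr8, which in mammals pairs with mtmr9, averaged 9.74 ± 0.856 FPKM in matured and 3.23 ± 1.22 FPKM in pre-matured libraries (SD, n = 3 each; limma adjusted p = 0.00734). Mtmr3, whose product acts on PI3P in autophagy, averaged 5.32 ± 0.766 FPKM in matured and 1.97 ± 0.56002 FPKM in pre-matured libraries (SD, n = 3 each; limma adjusted p = 0.0133, or 0.0593 without matured 1). Mtmr4, a phosphatase of endosomes, averaged 11.8 ± 2.43 FPKM in matured and 6.56 ± 0.7701 FPKM in pre-matured libraries (SD, n = 3 each; limma adjusted p = 0.0388). The groups of all 3 were apart. The call of mtmr4 was lost without any 1 library other than matured 2 (limma adjusted p between 0.0529 and 0.136), without a filter (0.0581), and with quantile normalization, median-ratio scaling and voom (0.144, 0.144 and 0.152). Mtmr6, another partner of mtmr9, had a log2 fold change of -0.016. Those of mtmr7a, mtmr7b, mtmr11 and mtmr14 were 0.028, 0.37, 0.21 and 0.62, and none of these genes passed, nor did mtmr6.

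Sorting nexins bind PI3P through a PX domain and steer cargo out of endosomes. Of 26 tested, 5 rose (19.2%, against 23.4% of all genes) and 1 fell, with 3 to 10 higher under the other scalings, under which 16.2% to 34.3% of all genes were higher. Snx17, which returns receptors and integrins from endosomes to the cell surface, had the largest rise of all called members on the log2(FPKM + 1) scale, at 22.6, 28.6 and 22.4 FPKM in the matured samples, against 1.51, 5.98 and 2.22 FPKM in the pre-matured samples (log2 fold change 2.73 ± 0.37 SE, limma adjusted p = 0.00191). With a pseudocount of 0.1 and with voom the rise of snx16 was larger (log2 fold change 3.56 and 4.14, against 3.11 and 2.84 for snx17). The lowest matured library was far above the highest pre-matured one, pre-matured 2. Snx16 was at 5.41, 4.32 and 2.61 FPKM in the matured samples, against 0, 0.713 and 0.4004 FPKM in the pre-matured samples (log2 fold change 1.89 ± 0.32 SE, limma adjusted p = 0.00389). It was listed at 0 in pre-matured 1, and the other pre-matured libraries held 20 and 11 reads of it. Snx16 passed the filter through the matured libraries alone. Snx10b, whose mammalian counterpart is linked to endosome acidification, was at 20.3, 8.45 and 18.8 FPKM in the matured samples, against 2.19, 1.905 and 5.11 FPKM in the pre-matured samples (log2 fold change 2.05 ± 0.398 SE, limma adjusted p = 0.00652). Matured 2 was the lowest matured library but still above pre-matured 3.

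Snx18a, of a membrane-bending group of nexins, was the member of the family that fell, at 3.46, 6.39 and 4.17 FPKM in the matured samples, against 7.62, 8.62 and 10.8 FPKM in the pre-matured samples (log2 fold change -0.84 ± 0.27 SE, limma adjusted p = 0.0404). Its groups did not overlap, but the call was lost without matured 1 or 3 or pre-matured 2 or 3 (limma adjusted p between 0.0726 and 0.141), without a filter (0.0651), and with TPM and trimmed totals (0.173 and 0.142). Snx1a, a membrane-bending partner of retromer and the nexin with the highest mean, was at 46.6, 48.7 and 44.2 FPKM in the matured samples, against 21.7, 28.02 and 39.2 FPKM in the pre-matured samples (log2 fold change 0.67 ± 0.24 SE, limma adjusted p = 0.0576). It was higher in every matured library and passed with TPM, with trimmed totals and without pre-matured 3 (limma adjusted p = 0.019, 0.0154 and 0.0229). Snx2, snx5 and snx6, the other nexins known to work with retromer, did not pass, with log2 fold changes of 0.35, 0.63 and 0.025. The calls of snx15 and of snx27b, which binds retromer and carries PDZ-motif cargo to the surface, lay near the threshold (limma adjusted p = 0.0471 and 0.0351). That of snx27b was lost without a filter (0.0513), with quantile normalization, median-ratio scaling and voom (0.139, 0.0676 and 0.0665) and without any 1 library other than pre-matured 2 (0.0577 to 0.115), and that of snx15 without a filter (0.0726), with a pseudocount of 0.1 (0.0502), with those same scalings (0.095, 0.102 and 0.173) and without any 1 library other than pre-matured 3 (0.0583 to 0.148). The remaining nexins did not pass, except snx8a, which was under the filter.

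Retromer is the coat that retrieves cargo from endosomes. Of 7 members tested, which include the related retriever genes vps26c and vps35l, 2 rose (28.6%, against 23.4% of all genes) and none fell. Both that rose encode the Vps26 subunit. Vps26bl was at 14.3, 14.4 and 13.9 FPKM in the matured samples, against 3.59, 6.06 and 6.94 FPKM in the pre-matured samples (log2 fold change 1.26 ± 0.25 SE, limma adjusted p = 0.00737). Vps26a was at 23.6, 27.2 and 26.7 FPKM in the matured samples, against 11.7, 16.1 and 13.6 FPKM in the pre-matured samples (log2 fold change 0.86 ± 0.199 SE, limma adjusted p = 0.0124). Vps26b was at 10.5, 9.44 and 6.55 FPKM in the matured samples, against 3.92, 5.28 and 6.39 FPKM in the pre-matured samples (log2 fold change 0.66 ± 0.26 SE, limma adjusted p = 0.0840). Matured libraries exceeded pre-matured ones in all 3 genes, and vps26b passed with TPM and with trimmed totals (limma adjusted p = 0.034 and 0.0266). Vps29, the smallest retromer subunit and the member with the highest mean, was at 39.5, 41.1 and 48.8 FPKM in the matured samples, against 37.3, 70.7 and 44.5 FPKM in the pre-matured samples (log2 fold change -0.19 ± 0.26 SE, limma adjusted p = 0.609). Pre-matured 2 was its highest library, and without it the sign turned (log2 fold change 0.075), as it did with TPM and with trimmed totals (0.14 and 0.14). Vps35, the retromer scaffold, had a log2 fold change of 0.27 (limma adjusted p = 0.410). Whether the Vps26 genes differ in their change from vps29 or vps35 was not tested.

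ESCRT proteins fold endosomal membrane inward and cut it. Of 16 tested members 2 rose and 2 fell (12.5% each, against 23.4% and 10.05% of all genes). The 2 that fell belong to the Vps37 subunit of ESCRT-I, the complex that gathers ubiquitin-tagged cargo. Vps37d had the largest fall of all called members, at 4.81, 6.31 and 6.103 FPKM in the matured samples, against 35.6, 20.9 and 19.02 FPKM in the pre-matured samples (log2 fold change -1.91 ± 0.27 SE, limma adjusted p = 0.00217). Vps37a was at 12.5, 16.6 and 11.01 FPKM in the matured samples, against 30.3, 31.7 and 29.6 FPKM in the pre-matured samples (log2 fold change -1.15 ± 0.21 SE, limma adjusted p = 0.00486). Each was lower in every matured library, and both calls held under all scalings. The other genes for this subunit, vps37c, vps37ba and vps37bb, had log2 fold changes of 0.56, 0.95 and 0.35 and did not pass.

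The genes that rose encode ESCRT-III proteins, which polymerise into the filaments that cut the membrane. Chmp4c, also part of the checkpoint for the last step of cell division, was at 23.6, 37.8 and 29.1 FPKM in the matured samples, against 11.7, 13.5 and 12.9 FPKM in the pre-matured samples (log2 fold change 1.16 ± 0.22 SE, limma adjusted p = 0.00600). Chmp2ba was at 5.25, 13.8 and 3.496 FPKM in the matured samples, against 1.201, 0.679 and 0.694 FPKM in the pre-matured samples (log2 fold change 2.02 ± 0.43 SE, limma adjusted p = 0.00907). Both were higher in every matured library, but chmp2ba rested on 11, 6 and 6 reads in pre-matured libraries, and its call was lost with voom (limma adjusted p = 0.0699). Chmp5b, the ESCRT member with the highest mean, was at 91.2, 98.2 and 117 FPKM in the matured samples, against 86.2, 68.1 and 68.1 FPKM in the pre-matured samples (log2 fold change 0.46 ± 0.19 SE, limma adjusted p = 0.102) and passed with TPM and with trimmed totals (limma adjusted p = 0.0136 and 0.0119). Its groups were apart. The ATPase genes vps4a and vps4b, which recycle the filaments, had log2 fold changes of 0.062 and 0.088 and did not pass. ESCRT genes called higher ranged from 1 with voom to 7 with trimmed totals, where 16.2% and 34.3% of all genes were higher. Under each scaling 2 were lower, against 5.5% to 15.6% of all genes. Chmp2a was under the filter.

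Tethers join vesicles to their target membrane. Of the HOPS and CORVET tethers of late and early endosomes, 1 of 7 tested rose (14.3%, against 23.4% of all genes). Vps11, a core subunit of both, was at 19.6, 16.5 and 11.4 FPKM in the matured samples, against 7.08, 7.0003 and 7.49 FPKM in the pre-matured samples (log2 fold change 1.01 ± 0.24 SE, limma adjusted p = 0.0141), and its call was lost without matured 1, the highest library (limma adjusted p = 0.0616). Vps33a, the SNARE-binding subunit, was at 5.21, 7.696 and 4.95 FPKM in the matured samples, against 2.08, 4.75 and 4.18 FPKM in the pre-matured samples (log2 fold change 0.603 ± 0.31 SE, limma adjusted p = 0.165). Vps39, which anchors HOPS on late endosomes, was at 6.52, 6.995 and 5.93 FPKM in the matured samples, against 3.42, 5.14 and 5.44 FPKM in the pre-matured samples (log2 fold change 0.42 ± 0.24 SE, limma adjusted p = 0.213). Both had groups that did not overlap and did not pass. Vps33b, a homologue of vps33a that works in another complex and has the highest mean of these 7, was at 17.4, 25.3 and 18.7 FPKM in the matured samples, against 18.5, 26.96 and 22.9 FPKM in the pre-matured samples (log2 fold change -0.15 ± 0.23 SE, limma adjusted p = 0.651). Its groups overlapped, and its sign turned with TPM and with trimmed totals (log2 fold change 0.17 and 0.18, limma adjusted p = 0.656 and 0.602).

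Of the GARP and EARP tethers, which serve transport to the Golgi and recycling, 1 of 5 tested rose (20%, against 23.4% of all genes). Vps52, a subunit of both, was at 42.95, 44.7 and 16.98 FPKM in the matured samples, against 7.03, 11.98 and 13.01 FPKM in the pre-matured samples (log2 fold change 1.54 ± 0.39 SE, limma adjusted p = 0.0185). Matured 3 lay well below matured 1 and 2, and the call was lost without matured 1, matured 2 or pre-matured 1 (limma adjusted p = 0.0665, 0.0588 and 0.0623). Vps54, specific to GARP, was at 5.51, 7.37 and 5.34 FPKM in the matured samples, against 2.91, 4.404 and 2.44 FPKM in the pre-matured samples (log2 fold change 0.75 ± 0.27 SE, limma adjusted p = 0.0599). It was higher in every matured library and passed with TPM, with trimmed totals and without pre-matured 2 (limma adjusted p = 0.0254, 0.0177 and 0.037). Vps53, shared by both tethers, was at 6.08, 6.47 and 9.42 FPKM in the matured samples, against 3.97, 8.11 and 4.12 FPKM in the pre-matured samples (log2 fold change 0.42 ± 0.31 SE, limma adjusted p = 0.323), with pre-matured 2 above 2 of the matured libraries.

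The remaining Vps genes rose in 3 of 5 tested (60%, against 23.4% of all genes). Under the other scalings 1 to 4 were higher, where 16.2% to 34.3% of all genes were. Without any 1 library 0 to 2 were higher, where 15.1% to 21.9% of all genes were. Vps45, which regulates SNARE proteins between the Golgi and endosomes, was at 7.298, 9.66 and 5.83 FPKM in the matured samples, against 2.86, 3.19 and 3.44 FPKM in the pre-matured samples (log2 fold change 1.02 ± 0.25 SE, limma adjusted p = 0.0153). Vps9d1, which carries a domain known from activators of Rab5, was at 4.88, 2.78 and 3.56 FPKM in the matured samples, against 0.959, 1.39 and 1.19 FPKM in the pre-matured samples (log2 fold change 1.103 ± 0.27 SE, limma adjusted p = 0.0158). Vps13d, a lipid transfer protein, was at 3.195, 2.65 and 2.28 FPKM in the matured samples, against 1.06, 1.202 and 1.33 FPKM in the pre-matured samples (log2 fold change 0.75 ± 0.24 SE, limma adjusted p = 0.0444). All 3 had groups that did not overlap. The call of vps45 was lost without matured 1 or 2 (limma adjusted p = 0.0537 and 0.0615), that of vps9d1 without matured 1 and with quantile normalization (0.0651 and 0.0662), and that of vps13d without any 1 library (0.0621 to 0.146), without a filter (0.0575), with a pseudocount of 0.1 (0.0544) and with quantile normalization and median-ratio scaling (0.231 and 0.0889). Vps13a, another lipid transfer protein and the member of this group with the highest mean, was at 27.2, 34.6 and 19.8 FPKM in the matured samples, against 14.3, 22.5 and 15.4 FPKM in the pre-matured samples (log2 fold change 0.61 ± 0.27 SE, limma adjusted p = 0.111). Pre-matured 2 exceeded matured 3, so its groups overlapped, and it passed with TPM and with trimmed totals (limma adjusted p = 0.0396 and 0.0271). Vps13c did not pass (log2 fold change 0.02).

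**Figure D4:**
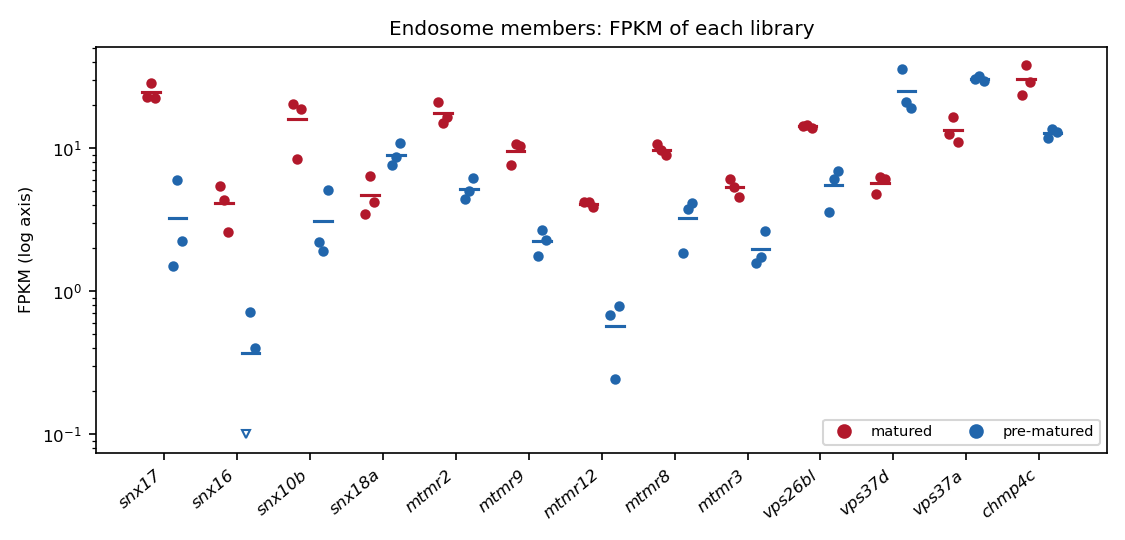
FPKM (log axis) of 13 endosome members, matured libraries in red to the left and pre-matured libraries in blue to the right for each gene, with bars at the mean of the 3 libraries; the open triangle at the lower edge is snx16 in pre-matured 1, listed at 0. All genes shown have groups that are apart, with matured libraries lower in snx18a, vps37d and vps37a and higher in the others.

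In 13 cases both a gene ending in a and its namesake ending in b were tested, some of them teleost duplicates such as mcoln1a and mcoln1b and others genes found throughout vertebrates such as vps4a and vps4b. A limma fit of the difference in log2(FPKM + 1) within each library, over all 403 such pairs in the table, called 28.04% of the pairs and 0 of these 13 (3 had an unadjusted p under 0.05). The smallest p was that of vps33a and vps33b, whose changes differed by 0.75 (95% interval 0.12 to 1.38, limma adjusted p = 0.0773). Atp6ap1la and atp6ap1lb differed by -0.97 (95% interval -1.87 to -0.062, limma adjusted p = 0.105), and snx18a and snx18b by -0.66 (95% interval -1.32 to -0.00027, limma adjusted p = 0.12). The intervals of the other pairs spanned 0. That of atg2a and atg2b ran from -0.88 to 0.55, and that of ulk1a and ulk1b from -1.23 to 0.82, so these data do not show that the genes of such a pair moved alike.

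Further genes of the same compartments, which the symbol rule did not reach, were drawn from 6 lists by known role. Of 119 tested, 34 were higher (28.6%) and 5 lower (4.2%), where 23.4% and 10.05% of all genes were, with a median log2 fold change of 0.37, as for the members. The share called higher was under that of all genes for other lysosomal hydrolases and other autophagy genes. Other lysosomal hydrolases rose in 4 of 25 and fell in none, and other lysosomal membrane proteins and transporters rose in 8 of 21, with 1 lower. Of those that rose, the hydrolase gene pla2g15 and the transporter gene mfsd8 passed the filter through the matured libraries alone, so these counts lean towards rises. The hydrolase genes arsb and smpd1 were tested in that way too but were not called. Regulators of the growth kinase mTORC1 and of Tfeb-like factors at the lysosome rose in 8 of 19 (42.1%) and fell in 2 (10.5%). Their median log2 fold change was 0.11, under the 0.23 of all genes. Sorting receptors and the enzyme that tags lysosomal proteins rose in 3 of 5, other endosome and ESCRT genes in 6 of 25 with 1 lower, and other autophagy genes in 5 of 24 with 1 lower.

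Some of these, chosen after their values were seen, act with members described above. Tfe3a and mitfa encode close relatives of Tfeb. Tfe3a was at 6.16, 6.08 and 4.35 FPKM in the matured samples, against 0.928, 2.03 and 0.513 FPKM in the pre-matured samples (log2 fold change 1.65 ± 0.32 SE, limma adjusted p = 0.00642). Mitfa was at 13.1, 10.9 and 11.5 FPKM in the matured samples, against 5.32, 4.97 and 6.99 FPKM in the pre-matured samples (log2 fold change 0.93 ± 0.22 SE, limma adjusted p = 0.0136). As with tfeb, both were higher in every matured library. Eea1, which tethers early endosomes by binding PI3P, was at 22.4, 25.4 and 20.7 FPKM in the matured samples, against 5.19, 5.54 and 6.24 FPKM in the pre-matured samples (log2 fold change 1.84 ± 0.199 SE, limma adjusted p = 0.00104). Pikfyve, the kinase that turns PI3P into the lipid that opens mucolipin 1, was at 14.6, 12.9 and 13.3 FPKM in the matured samples, against 37.3, 25.4 and 21.7 FPKM in the pre-matured samples (log2 fold change -0.96 ± 0.24 SE, limma adjusted p = 0.0157). Eea1 was thus higher, and pikfyve lower, in every matured library. Depdc5, of the GATOR1 complex that restrains mTORC1, fell with a log2 fold change of -1.08, while nprl2 and nprl3, its partners there, rose with 1.302 and 1.05 (limma adjusted p = 0.00563, 0.0119 and 0.00641).

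Scaling and gene length moved with the counts. With TPM 51 members were higher and 2 lower, against 32.5% and 5.5% of all genes, and with voom on rebuilt reads 28 and 12, against 16.2% and 14.6%. No member was called in opposite directions by 2 scalings, and 25 were higher and 2 lower under all 6. How many of all genes kept a call under all 6 was not counted, so these numbers give no comparison with other genes. Among all genes tested, when split into 3 equal classes by the gene lengths the FPKM imply, 28.0% of the longest (over 3529 bases) were higher and 5.0% lower, against 18.2% and 15.6% of the shortest (up to 2132 bases). The members in the longest class gave 15 higher and 1 lower of 49, and those in the shortest 8 higher and 3 lower of 33. The part of length in the members' changes was not tested.

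**Figure D5:**
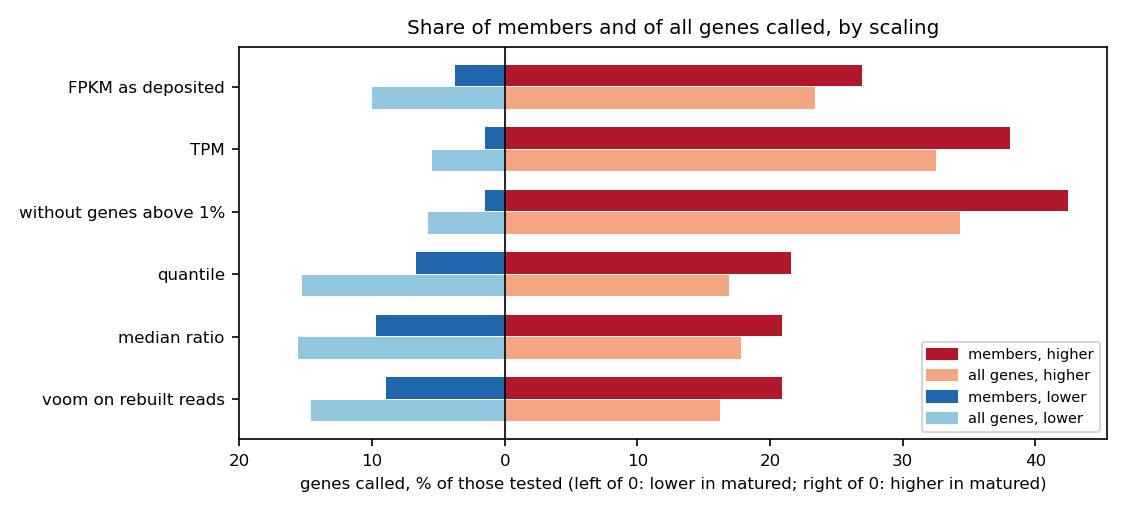
Percent of tested genes called higher (right of 0) and lower (left of 0) in matured libraries at adjusted p under 0.05, for the 134 members (dark bars) and all 17887 genes tested (light bars), under 6 scalings of the same table. The members' share of higher calls runs from 20.9% to 42.5% and lies a few points above that of all genes in each row, and their share of lower calls lies below it.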

How the data were processed

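RNA-seq of female eel pituitaries, 3 matured and 3 pre-matured libraries by the labels' age field, was analysed from 1 deposited table with 1 column per library. RNA was extracted with TRIzol and libraries were made with an NEBNext Ultra II kit, per the labels' protocols, and the submitters' processing notes name CASAVA 1.8. Aligner, read counter, genome build and annotation were not given in the sources used here, nor was how reads shared by near-identical paralogs were counted. The authors' deposited values were read as FPKM from the values alone (not whole, unequal totals), so RPKM is equally possible.

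The table's values step in whole reads: in the 25782 genes with a value in 2 or more libraries, the ratios between libraries gave whole reads at a relative tolerance of 1e-13, from which depths and gene lengths were rebuilt. They amount to 99.3% to 99.6% of the rebuilt depth. Read numbers speak for counting error only. Genes under the 16895 LOC identifiers could not be matched by symbol, so subunits named that way are not covered.

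The test was limma 3.58.1 (R 4.3.3; lmFit, then eBayes with trend and robust settings) on log2(FPKM + 1) of genes reaching 1 FPKM in 3 or more libraries, with Benjamini-Hochberg adjusted p under 0.05 over all 17887 genes. Pairs of genes were fitted the same way on their difference, without the trend and robust settings. The scripts were tested on simulated data with known changes. With 3 libraries against 3, an exact permutation test of 1 gene cannot go below p = 0.1, and the adjusted p-values borrow the spread of all genes. The fits were repeated with the filter dropped or raised to 5 FPKM, with 0.1 added in place of 1, after rescaling (to TPM, to trimmed totals that leave out genes above 1% of any library, by quantiles, or by median ratios), with voom on rebuilt reads and trimmed-mean factors, with each library left out with the same genes tested, a fold of at least 2 and adjusted p under 0.01. Values are printed per library for the 3 smallest p and the highest mean of each role group and for the 6 largest rises and falls, with lamp1a, atg2a, atg2b and genes outside the rule added after their values were seen. Values of 1 member that the rule on printed values picks are not reported here. The members, lists and tests were chosen with earlier results of these data known. Tables were handled in Python 3.11.15 with pandas 2.3.3.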

Additional observations from a re-analysis of the deposited data

How the results depend on the processing

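The count of 36 higher members stayed within 1.5 times in all settings but 2: trimmed totals gave 57 and adjusted p under 0.01 gave 19. The 5 lower members became 3 without a filter, 2 with TPM, 2 with trimmed totals, 9 after quantile normalization, 13 under median-ratio scaling, 12 under voom, 2 at a fold of at least 2 and 2 at adjusted p under 0.01. Leaving out 1 library gave 25 to 36 higher (25 without matured 1) and 3 to 7 lower, with 3 without matured 1, 3 without matured 3 and 7 without pre-matured 1. The median log2 fold change of members, 0.373, was 0.266 with a filter of 5 FPKM (106 members tested), 0.426 with a pseudocount of 0.1, 0.696 with TPM, 0.708 with trimmed totals, 0.155 after quantile normalization, 0.144 under median-ratio scaling and 0.145 under voom. It ran from 0.306 without pre-matured 1 to 0.457 without pre-matured 2. The median of all genes moved with it, and the difference between both lay between 0.064 and 0.243 over the settings. No pair of members passed in any setting that fitted pairs.

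Signs were compared over all settings only for called members and those picked by the rule on printed values. Among these, signs turned in members that did not pass: atp6ap2 (0.124 with TPM, 0.128 with trimmed totals), vps29 (0.138 and 0.143 in these, and -0.378 to 0.075 over left-out libraries, the highest without pre-matured 2), vps33b (0.171 and 0.175) and ctsba (-0.109 with median-ratio scaling, -0.122 with voom, and -0.174 without pre-matured 2 to 0.530 without pre-matured 1). Members outside that comparison turned too, such as ctsla (log2 fold change 0.088, and -0.190 with voom) and vps28 (0.065, and -0.214 with voom). The cause was not tested. No paired analysis was possible because the labels give the libraries no shared numbers. Depth limits low members: snx16, chmp2ba and tfeb rest on few pre-matured reads.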

Other observations

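Libraries of a group did not weigh equally among the members. Pre-matured 1 was the lowest pre-matured library for 79 of the 134 tested members (59.0%) and for 51.1% of all genes tested, and pre-matured 2 was the highest for 62 members (46.3%) and for 42.4% of all genes. Among matured libraries, matured 2 was the highest for 55 members (41.0%), against 46.7% of all genes, and the lowest for 25 (18.7%), against 24.2%. The members' spread within a group was smaller than that of all genes in both groups: the median coefficient of variation was 17.0% in matured libraries and 24.8% in pre-matured ones, against 20.9% and 30.7% for all genes tested. That comparison was not matched for level: 106 of the 134 members, but 10757 of all 17887 genes, had 5 FPKM or more in at least 3 libraries. The median level of the tested members was 10.4, 10.7 and 10.3 FPKM in the matured samples and 6.71, 8.84 and 8.599 FPKM in the pre-matured samples.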
